A study of Mus musculus with 12 samples.

Results

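Small RNA from the mouse hippocampus 1 h after electroconvulsive shock (ECS) was compared with small RNA from untreated hippocampus. ECS is a brief current across the head that depolarizes neurons throughout the brain and evokes a seizure. The comparison used 4 of the 12 samples of the series, the libraries NT-1 and NT-2 from untreated mice and the libraries 1h-1 and 1h-2 from mice killed 1 h after ECS. All 4 came from individual male C57BL/6NCrl mice, labelled 0 hr and 1 hr, with no other treatment named and no sham-treated group among them, so handling and current cannot be told apart. The suffix is the replicate number of the deposited label, which the study says marks the time course. The libraries were paired by it, which gave pair 1 (1h-1 against NT-1) and pair 2 (1h-2 against NT-2). For the untreated libraries, the order of read numbers in the study's own table is the reverse of that under the deposited labels. Tags that matched an annotated miRNA hairpin exactly over their full length were counted per arm of the hairpin (5p or 3p). Of 1065 arms with a count in any sample, 469 had 10 or more counts in at least 2 of the 12 libraries and were used, and 225 of these moved the same way in both pairs.

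MicroRNAs are cut from a hairpin precursor, and one or both arms enter Argonaute proteins, which they guide to mRNAs by pairing of the seed, bases 2 to 8 from the 5′ end. Arms with the same seed share most of their potential targets. In neurons, activity acts on miRNAs through transcription of some precursors, such as the CREB-driven hairpins of miR-132 and miR-212, and through their processing and decay, and several miRNAs act on local translation near synapses.

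Mature sequences from RefSeq (GRCm38.p6) matched the leading tag of 393 of the 469 arms, within 3 nt of its start. The sequences below are those of some families described further on, printed 5′ to 3′ with the seed in capitals. They were picked with the direction of their arms in these data known. The first group shares the seed ACCCGUA, and all its members were higher at 1 h in both pairs.
miR-99a-5p: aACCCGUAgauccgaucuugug
miR-99b-5p: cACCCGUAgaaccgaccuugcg
miR-100-5p: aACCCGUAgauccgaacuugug
The next shares the seed UCACAGU, and its members were lower in both pairs.
miR-27a-3p: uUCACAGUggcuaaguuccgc
miR-27b-3p: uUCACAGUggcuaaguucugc
Of the miR-181 family, with the seed ACAUUCA, these members were lower in both pairs.
miR-181a-5p: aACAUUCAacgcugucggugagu
miR-181b-5p: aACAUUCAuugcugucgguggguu
miR-181d-5p: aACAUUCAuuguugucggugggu
The arms of the activity-linked hairpins carry unlike seeds on the 5′ side and one shared seed on the 3′ side.
miR-212-5p: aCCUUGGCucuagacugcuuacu
miR-132-5p: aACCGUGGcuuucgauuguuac
miR-212-3p: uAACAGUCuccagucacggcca
miR-132-3p: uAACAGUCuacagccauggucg
The let-7 arms, among the most abundant, differ only beyond their seed.
let-7f-5p: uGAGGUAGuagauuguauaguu
let-7g-5p: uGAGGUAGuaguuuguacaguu
let-7c-5p: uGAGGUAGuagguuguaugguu

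The 4 libraries differed in depth and in the length of their tags. Accepted reads ran from 3674297 in NT-1 to 7574743 in NT-2, and miRNA counts from 1067558 in NT-1 to 4282006 in NT-2, with 1361652 in 1h-1 and 3922856 in 1h-2. Tags of 18 and 19 nt, shorter than most mature miRNAs, made up 51.4% of the miRNA counts of NT-1 and 13.5% of 1h-1, against 1.69% of NT-2 and 1.31% of 1h-2. Pair 1 thus compared libraries of unlike tag length, and for many of the arms and for the lists below the change by tags of 20 nt and more is given as well. The libraries of one group were no closer to each other than those of one time course. Pearson's r of log2 levels over the 469 arms was 0.81 between NT-1 and NT-2 and 0.855 between 1h-1 and 1h-2, but 0.907 within pair 1 and 0.968 within pair 2. No 2 libraries agreed within counting noise.

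**Figure D1:**
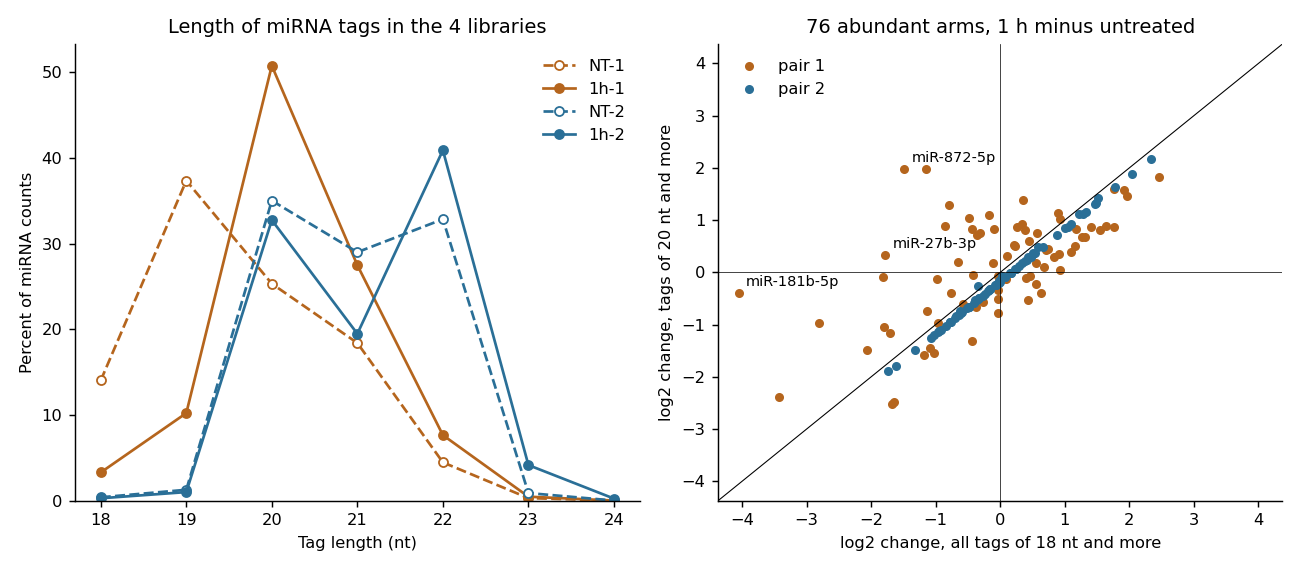
Left, percent of miRNA counts (y axis) at each tag length in nt (x axis) in the 4 libraries, where NT-1 peaked at 19 nt and 1h-1 at 20 nt. Right, log2 change from untreated to 1 h from all tags (x axis) against that from tags of 20 nt and more (y axis) for the 76 arms with a mean of at least 0.1% of miRNA counts. Pair 2 lies along the diagonal, while miR-181b-5p, miR-872-5p and miR-27b-3p of pair 1 lie well above it.

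No arm passed the test of 1 h against untreated. Levels are normalised CPM, the counts of an arm scaled to a common total of miRNA counts with TMM factors. The test was edgeR's quasi-likelihood test over all 12 libraries with time point and time course as terms. Of 469 arms, 0 (0%) had an adjusted p under 0.05, the smallest adjusted p being 0.999. The unadjusted p was below that mark in 12 arms (2.56%), of which 4 had a positive and 8 a negative fitted change. DESeq2 with the same terms also gave 0 at the adjusted threshold and 18 at the unadjusted one. Without NT-2 the count at the unadjusted threshold was 52, and without NT-1 it was 2, with 0 adjusted calls in both. The median standard error of a fitted log2 change was 0.96. With 2 pairs, an exact sign-flip test of one arm cannot give a two-sided p below 0.5, so the direction in both pairs is a description.

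The pairs differed in which arms were higher. In 113 arms (24.1%) the level was higher at 1 h in both pairs, in 112 (23.9%) it was lower in both, and in 244 the pairs went opposite ways. Pearson's r between the changes of pair 1 and pair 2 over the 469 arms was -0.02, and Spearman's rho was -0.02. The median size of the change was 1.04 in pair 1 and 0.63 in pair 2 on the log2 scale, against 1.67 between the untreated libraries. Changes of at least 1.5-fold in both pairs were found in 44 arms (9.38%) upward and 38 arms (8.1%) downward. Both 1 h libraries lay above both untreated libraries in 29 arms (6.18%) and below both in 33 (7.04%). Scaling by total miRNA counts in place of TMM gave 144 arms higher and 81 lower in both pairs, as the median change of all arms moved from -0.04 to 0.21 in pair 1 and from 0.03 to 0.15 in pair 2. Of the 225 arms that moved the same way, 136 had 10 or more counts in each of the 4 libraries. The direction in both pairs was kept by 70 of the 113 and 45 of the 112 under each of 5 other ways of scaling or counting. Near the line between the classes, miR-409-3p differed by 0.02 and 0.49 and was counted as higher, and miR-185-3p by 0.80 and -0.01 and was not.

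**Figure D2:**
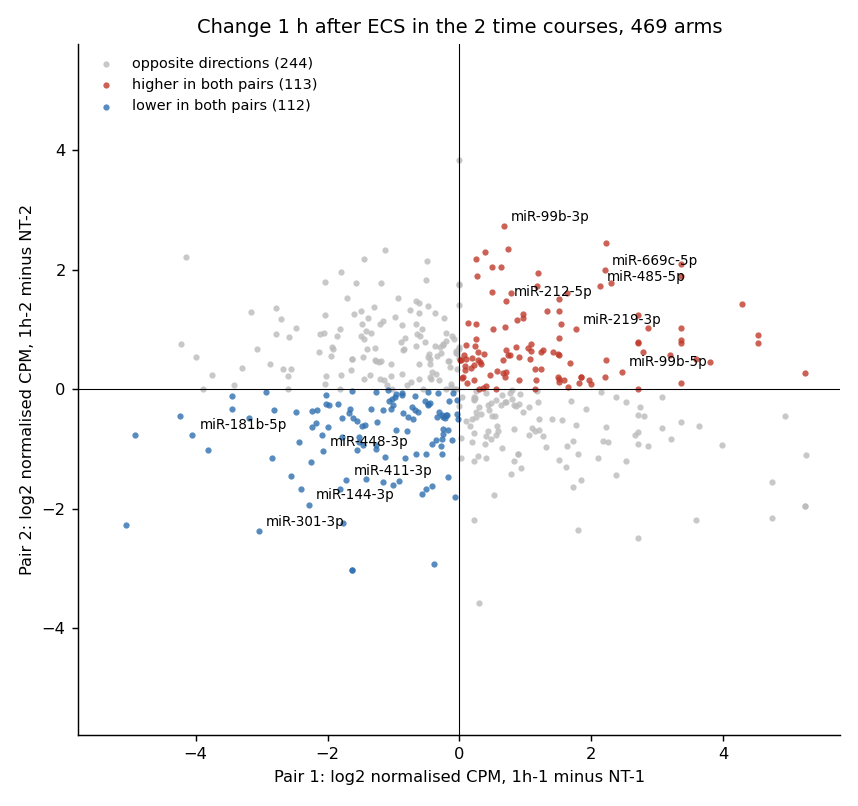
Change from untreated to 1 h after ECS in log2 normalised CPM for 469 arms, pair 1 on the x axis and pair 2 on the y axis. The 113 arms higher in both pairs and the 112 lower in both are coloured, the 244 opposite ones are grey, and the cloud has no slope.

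Over all 469 arms, 24.1% were higher at 1 h in both pairs. Among those with a mean of at least 0.1% of miRNA counts, 16 of 76 were. Ranked by the smaller of its pair changes, miR-219-3p came first. The miR-219 hairpins (chromosome 2, 29845631 to 29845727, and chromosome 17, 34024983 to 34025092, both minus strand, GRCm38) lie in no annotated host gene, and miR-219 promotes the differentiation of oligodendrocytes. Its 3p level was 1699 CPM in NT-1 and 5778 in 1h-1, and 9029 in NT-2 and 18135 in 1h-2. Each 1 h library was above its own untreated partner, by 3.40-fold and 2.01-fold, but 1h-1 was below NT-2, so that the groups overlapped. The fitted log2 change was 1.26 ± 0.76 (SE). Tags of 18 and 19 nt made up 48.3% of the counts of the 3p arm in NT-1 and 8.57% in 1h-1. The 5p arm did not follow in pair 1, at 66.1 and 57.1 CPM, and stood at 90.7 and 159 CPM in pair 2. Of the 4 arms of the oligodendrocyte markers miR-219 and miR-338, 1 was higher in both pairs, and all 4 were when the libraries were scaled by total counts. miR-338-3p measured 33.7 and 32.4 CPM in pair 1 and 27.4 and 41.9 in pair 2. The summed level of the list, nearly all of it miR-219-3p, went from 1815 to 5882 and from 9178 to 18368 CPM. In bulk tissue a larger share of a cell type and more RNA per cell cannot be told apart.

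Next came miR-212-5p, from the CREB-regulated hairpin on chromosome 11 (75173388 to 75173478, plus strand, an intron of the transcript 1700016P03Rik). Its level was 269 CPM in NT-1 and 441 in 1h-1, and 1363 in NT-2 and 3780 in 1h-2. It was higher at 1 h by 1.64-fold in pair 1 and 2.77-fold in pair 2, and the gap between the untreated libraries was wider than either change. Tags of 18 and 19 nt made up 44.1% of its counts in NT-1 and 8.60% in 1h-1. The other arm of the same hairpin moved the other way. miR-212-3p measured 58.0 and 19.9 CPM in pair 1 and 47.2 and 27 in pair 2, so that both 1 h libraries were below both untreated ones. The fitted log2 changes were 1.16 ± 0.90 (SE) for the 5p and -1.30 ± 0.82 (SE) for the 3p arm. miR-132, whose hairpin lies just downstream in the same transcript (75173682 to 75173747), showed no common direction. miR-132-3p was at 56.1 and 87.2 CPM in pair 1 and 74.1 and 62.0 in pair 2, and miR-132-5p at 267 and 219, and 125 and 191. Of the 4 arms of this list, 1 was higher and 1 lower in both pairs, with median log2 changes of 0.17 and 0.18 against -0.04 and 0.03 over all arms.

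The miR-99 family was higher in all of its 5p arms. miR-99b-5p, cut from a hairpin in an intron of Spaca6 (chromosome 17, 17830188 to 17830257, plus strand), was at 892 CPM in NT-1 and 4923 in 1h-1, and at 3695 in NT-2 and 4536 in 1h-2. miR-99a-5p, from an intron of Mir99ahg (chromosome 16, 77598936 to 77599000, plus strand), was at 1878 and 3503, and at 2424 and 3523. Tags of 18 and 19 nt made up 59.4% of the counts of miR-99a-5p in NT-1 and 5.55% in 1h-1, and for miR-99b-5p 22.8% and 1.25%. miR-100-5p (chromosome 9, 41531425 to 41531504, plus strand) was at 288 and 593, and at 527 and 851. In each of the 3 the lower of the 1 h libraries lay above the higher of the untreated ones, as it did in 29 of all 469 arms (6.18%). The differences in pair 2 were small, 1.23-fold for miR-99b-5p and 1.45-fold for miR-99a-5p, and the fitted log2 changes were 0.83 ± 0.95 and 0.63 ± 0.84 (SE). Without NT-1 the fitted change of miR-99b-5p was -0.14 and that of miR-99a-5p -0.08. Summed over the seed, the level went from 3059 to 9019 CPM in pair 1 and from 6646 to 8910 in pair 2. The opposite arm, miR-99b-3p, was at 22.4 and 36.0 CPM in pair 1 and 12.6 and 84.6 in pair 2, which is 92 counts in 1h-1 and 329 in 1h-2. It is one of the 12 arms past the unadjusted threshold, with a fitted log2 change of 2.11 ± 0.97 (SE).

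The hairpins next to the miR-99 family were of mixed direction. miR-99a lies in one cluster with let-7c (chromosome 16, 77598936 to 77599750), and let-7c-5p was higher in both pairs, at 17235 and 23650 CPM, and at 75310 and 88643. miR-99b lies in one cluster with let-7e and miR-125a (chromosome 17, 17830188 to 17830879). let-7e-5p was at 3979 and 2852 CPM in pair 1 and 2528 and 2441 in pair 2, and it was the lowest of the 6 time points at 1 h in both time courses, although scaling by total counts put 1h-2 above NT-2. miR-125a-5p was at 216 and 96.6 CPM in pair 1, and at 816 and 1807 in pair 2. Over the 10 arms of the miR-99/100 and miR-125 families, 4 were higher and 1 lower in both pairs (0 lower by total counts), and the medians were 0.79 and 0.42. Over all arms 24.1% were higher and 23.9% lower in both pairs. Of 37 seeds shared by 2 or more arms with a RefSeq sequence, 2 had all their members higher in both pairs and 3 all lower, and the miR-99 seed was the only one among those with 3 or more members.

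Further abundant arms were higher by smaller or less even steps. miR-185-5p, from an intron of Tango2, was at 109 and 176 CPM in pair 1 and 1835 and 3798 in pair 2. miR-320-3p was at 79.8 and 124, and at 983 and 4065. For these arms the second time course lay more than 10-fold above the first whatever the treatment. With tags of 20 nt and more the log2 change of miR-320-3p in pair 1 was -0.40 in place of 0.63. miR-541-5p, from the imprinted miRNA cluster of chromosome 12, was at 835 and 1393, and at 1620 and 2423. miR-298-5p was at 4110 and 5170, and at 3994 and 5386, and so at like levels in both time courses, though not from like tags. Tags of 18 and 19 nt made up 81.7% of its counts in NT-1 and 45.1% in 1h-1, against 10.6% in NT-2 and 8.80% in 1h-2. Its change was 1.26-fold and 1.35-fold, with both 1 h libraries above both untreated ones and a fitted log2 change of 0.40 ± 0.93 (SE). miR-222-3p (0.23 and 0.41 on the log2 scale) and miR-433-3p (0.25 and 1.09) were likewise higher in both pairs and kept that under each of the 5 other ways of scaling or counting. miR-219-3p, miR-212-5p, miR-99a-5p, miR-99b-5p and miR-298-5p kept it as well, and miR-320-3p did not.

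**Figure D3:**
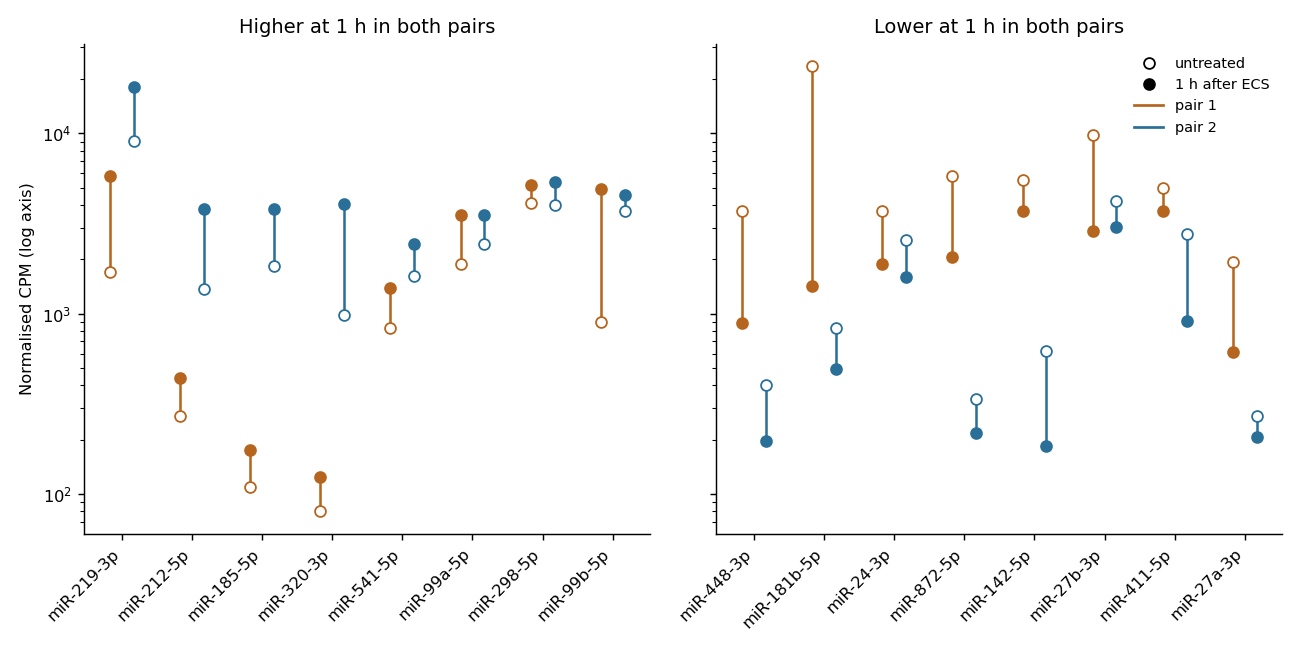
Normalised CPM on a log axis (y) of the 8 abundant arms higher (left) and the 8 lower (right) at 1 h in both pairs (x), open circles for untreated and filled circles for 1 h libraries, joined within each pair. For miR-185-5p and miR-320-3p both libraries of pair 2 lie above both of pair 1, and for miR-181b-5p NT-1 stands above the other 3 libraries.

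Of the 76 abundant arms, 21 were lower at 1 h in both pairs, against 23.9% of all 469 arms. By the smaller of its pair changes miR-448-3p, given below, came first. The widest gap in pair 1 belonged to miR-181b-5p, a member of a family that acts on excitability and on T cell signalling. miR-181b-5p was at 23541 CPM in NT-1 and 1423 in 1h-1, and at 831 in NT-2 and 490 in 1h-2. NT-1 was far above the other 3 libraries, and 1h-1 was above NT-2. Its fitted log2 change was -3.18 ± 1.05 (SE), with an unadjusted edgeR p of 0.00897 and an adjusted p of 0.999. In NT-1, 96.3% of the counts of this arm came from tags of 18 and 19 nt, against 8.02% in 1h-1. With tags of 20 nt and more the log2 change was -0.39 in pair 1, in place of -4.05, and -0.95 in pair 2, in place of -0.76. miR-181a-5p was at 17129 and 2444 CPM, and at 2160 and 1705, and miR-181d-5p was at 1919 and 251, and at 239 and 232. Of the 7 arms of the family 4 were lower and 0 higher in both pairs, or 3 lower without miR-181d-5p by total counts, with medians of -2.02 and -0.04. The medians were -0.96 and -0.22 with the longer tags. Over all arms 24.1% were higher and 23.9% lower in both pairs.

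miR-24-3p, miR-27a-3p and miR-27b-3p, from 2 paralogous clusters on chromosomes 8 and 13 that also hold miR-23, were each lower in both pairs. miR-24-3p was at 3701 CPM in NT-1 and 1892 in 1h-1, and at 2570 in NT-2 and 1604 in 1h-2. Both 1 h libraries were below both untreated ones, by 1.96-fold and 1.60-fold within the pairs, and the longer tags alone gave -0.96 and -0.84 on the log2 scale. miR-27b-3p was at 9839 and 2866, and at 4189 and 3008, and also did not overlap. Its longer tags gave 0.33 in pair 1 and -0.66 in pair 2, and 93.7% of its counts in NT-1 were of 18 and 19 nt. miR-27a-3p was at 1940 and 608, and at 271 and 207. Of the opposite arms, miR-27b-5p was higher in both pairs on 0 and 5 counts, and 5 and 24, while miR-27a-5p had 0 counts in both libraries of pair 1, and miR-24-5p, at 53.0 and 39.5 CPM, and at 59.2 and 72.5, had no common direction. miR-23a-3p (-0.17 and -0.67) and miR-23b-3p (-0.44 and -0.23) were lower in both pairs with all tags, while their longer tags gave 0.74 and 0.36 in pair 1 and scaling by total counts put miR-23a-3p higher in pair 1. Of the 9 arms of the list 5 were lower and 2 higher in both pairs, against 4 and 2 by total counts and 2 and 3 by the longer tags. Over all arms 23.9% were lower and 24.1% higher in both pairs.

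miR-448-3p, whose hairpin lies in an intron of the serotonin receptor gene Htr2c (chromosome X, 147158210 to 147158321, plus strand), was at 3709 and 883 CPM in pair 1 and at 399 and 195 in pair 2. The level in 1h-1 was above that in NT-2. The change was 4.20-fold and 2.04-fold downward, with a fitted log2 change of -1.90 ± 1.36 (SE), which became 0.76 without NT-1. Tags of 18 and 19 nt made up 69.1% of its counts in NT-1 and 7.92% in 1h-1. Its direction in both pairs was kept under each of the 5 other ways of scaling or counting. Htr2c is abundant in the choroid plexus, the epithelium that lies beside the hippocampus in the ventricle. The 5 arms of the choroid plexus markers measured (miR-204, miR-448, miR-1298) summed to 4353 and 1127 CPM in pair 1, and to 527 and 349 in pair 2, and of the 5 miR-448-3p was the one lower in both pairs, also when scaled by total counts. The part of choroid plexus tissue in this result was not tested.

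miR-142-5p, a miRNA of blood-derived and microglial cells, was at 5521 and 3722 CPM, and at 618 and 184. Of the 6 arms of the microglia and immune list, 2 were lower and 0 higher in both pairs (1 higher by total counts), and their summed level was 6333 and 4423 CPM in pair 1 and 3889 and 4410 in pair 2. miR-872-5p, from an intron of Ift74, was at 5777 and 2066, and at 335 and 218. Tags of 18 and 19 nt made up 98.3% of its counts in NT-1, and the longer tags gave 1.97 in pair 1 in place of -1.48. The opposite arm, miR-872-3p, was at 145 and 54.0 CPM, and at 252 and 89.0, with both 1 h libraries below both untreated ones and -1.10 and -1.68 by the longer tags. miR-411-5p was at 4941 and 3695, and at 2770 and 904. miR-411-3p followed it, at 238 and 72.3, and at 34.3 and 11.8.

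Below 0.1% of miRNA counts, miR-485-5p came first by the smaller of its pair changes, among the higher arms with 10 or more counts in each library. miR-485 comes from the imprinted cluster of chromosome 12 (109734902 to 109734974, plus strand, in an exon of Mirg), and it acts on presynaptic proteins and the density of synapses. The 5p arm was at 76.7 CPM in NT-1 and 337 in 1h-1, and at 175 in NT-2 and 582 in 1h-2. Both 1 h libraries were above both untreated ones, by 4.38-fold and 3.32-fold within the pairs. The counts behind these levels were 123, 861, 684 and 2263. Its fitted log2 change was 1.89 ± 0.86 (SE), the unadjusted p was 0.0448 and the adjusted p 0.999, and the longer tags gave 1.51 and 1.56. miR-485-3p, the more abundant arm in each library, untreated and 1 h, was at 256 and 356 CPM, and at 950 and 812, and so had no common direction.

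The less abundant higher arms that follow rested on fewer counts than miR-485-5p in pair 1, unlike miR-100-5p above (462 and 1517 counts). miR-664-5p was at 9.97 and 25.4 CPM in pair 1, which is 16 and 65 counts, and at 307 and 758 in pair 2. miR-206-3p, a muscle miRNA, was at 9.97 and 29.3, and at 47.7 and 102. miR-3099-3p was at 16.8 and 30.9, and at 9.74 and 22.1, with no overlap, but the longer tags gave -1.35 in pair 1. miR-335-5p, from an intron of the imprinted gene Mest, was at 39.3 and 71.5, and at 143 and 235. miR-669c-5p (2.20 and 2.00 on the log2 scale) and miR-652-3p (2.78 and 0.63) were, with miR-485-5p and miR-99b-3p, the 4 positive arms of the 12 past the unadjusted threshold. They had 3 and 9 counts in NT-1.

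Of the lower ones, miR-144-3p was at 1272 and 261 CPM in pair 1 and at 25.1 and 6.43 in pair 2. miR-144 is a red cell miRNA made from the same transcript as miR-451. Its 3p arm held 98.1% tags of 18 and 19 nt in NT-1, and the longer tags gave -0.14 in pair 1 in place of -2.29. miR-144-5p went opposite ways, at 32.4 and 114, and at 24.6 and 11.6. miR-451-5p was at 3.12 and 15.2 CPM, and at 37.7 and 43.5, and miR-486-5p at 18.1 and 65.7, and at 109 and 125. The 5 arms of the blood list thus held 2 higher and 1 lower in both pairs, and summed to 1326 and 456 CPM in pair 1 and to 207 and 191 in pair 2. The part of blood in these levels was not tested. miR-6236-5p was at 36.2 and 6.65 CPM, and at 48.7 and 15.2, and miR-455-3p at 28.0 and 12.5, and at 21.5 and 7.20, both with no overlap between the groups. miR-301-3p (-3.05 and -2.37), miR-15a-3p (-2.56 and -1.44), miR-3106-5p, miR-6240-3p and miR-6538-5p completed the 8 negative arms past the unadjusted threshold. By the longer tags miR-301-3p was at 0 CPM in NT-1 and 7.57 in 1h-1.

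The 10 most abundant arms shared no direction. let-7f-5p, at 67415 and 54326 CPM in pair 1 and 220348 and 168972 in pair 2, was lower by 1.24-fold and 1.30-fold. With longer tags it was higher in pair 1, by 0.76 on the log2 scale, and scaled by total counts its change there was 0.01. let-7g-5p was at 10779 and 19221, and at 204826 and 169980, opposite in the pairs. let-7c-5p, given above beside miR-99a-5p, was higher in both pairs, and let-7i-5p was at 3875 and 4149, and at 18115 and 25826. Over the 16 arms of the let-7 family 4 were higher and 4 lower in both pairs, with medians of 0.10 and -0.06, and 6 were higher and 1 lower by total counts. The 10 arms with the seed GAGGUAG summed to 115554 and 116437 CPM in pair 1, and to 545711 and 480974 in pair 2. miR-124-3p, the main miRNA of neurons, was at 174279 CPM in NT-1 and 55461 in 1h-1, and at 28883 in NT-2 and 23036 in 1h-2. It was lower by 3.14-fold in pair 1 and 1.25-fold in pair 2. The longer tags gave -2.47 and -0.49 on the log2 scale, and the fitted log2 change of -1.21 ± 0.86 (SE) became 0.07 without NT-1. miR-128-3p, also enriched in neurons, was at 17802 and 47248, and at 77631 and 55234, and miR-101a-3p at 37051 and 36224, and at 39273 and 29674, where scaling by total counts put 1h-1 higher than NT-1. The changes of miR-143-3p, miR-29a-3p, miR-140-3p and miR-1839-5p in the 2 pairs lay between -0.70 and 1.18.

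The lists of miRNAs with a shared role or origin mostly held arms of both directions. Of 12 arms of synaptic and dendritic miRNAs, 2 were higher and 2 lower in both pairs, with medians of -0.31 and 0.24. miR-134-5p, which limits the size of dendritic spines, was at 827 and 263 CPM, and at 145 and 181. miR-138-5p, which acts on spines too, was at 5595 and 4128, and at 2284 and 3240. Of 14 neuron-enriched arms, 2 were higher and 5 lower, with medians of -0.18 and -0.31, and miR-9-5p was at 9298 and 8609, and at 8413 and 15548. The miR-379/410 cluster, one imprinted transcript of the Dlk1-Dio3 region, had 51 arms measured, 9 higher and 12 lower in both pairs, with medians of 0.02 and -0.20. It held miR-485-5p and miR-541-5p among the higher and both arms of miR-411 among the lower. The miR-30 family had 2 of 10 arms higher and 0 lower, the miR-15/16 family 0 of 11 higher and 4 lower, the miR-29 family 2 of 6 higher and 1 lower, and the miR-17-92 type clusters 3 of 12 higher and 2 lower. Of 5 miR-34 arms 1 was higher and 0 lower. Over all arms 24.1% were higher and 23.9% lower. Scaled by total counts, 4 neuron-enriched arms were higher and 4 lower, 11 of the miR-379/410 cluster higher and 10 lower, and 6 of the miR-17-92 type clusters higher and 2 lower. By tags of 20 nt and more, the neuron-enriched list held 3 arms higher and 2 lower, with medians of 0.58 and -0.47, and the miR-379/410 cluster 16 and 13, with medians of 0.81 and -0.37. The miR-15/16 family then held 0 higher and 1 lower (medians of 0.59 and -1.03), the let-7 family 1 and 3, the miR-30 family 1 and 2, the miR-29 family 1 and 2, the synaptic list 3 and 4, and the miR-132 and miR-212 arms 2 and 2. The negative pair 1 medians of the neuron-enriched and miR-15/16 lists thus had the other sign with the longer tags. So did those of miR-23, miR-24 and miR-27 (-0.42 to 0.36), the miR-17-92 type clusters (-0.13 to 0.13) and the miR-34 arms (-0.37 to 0.17). The pair 1 median of the miR-29 family turned from 0.05 to -0.98. The miR-17-92 type clusters held 4 and 1, the miR-34 arms 2 and 0, and the miR-99/100 and miR-125 families 4 and 2. Of the marker lists, the oligodendrocyte one held 2 and 1, the blood one 1 and 1, the microglia and immune one 1 and 2, and the endothelial one 1 and 3. With all tags, the endothelial and vascular markers had 2 of 6 arms higher and 1 lower, and the muscle markers 1 of 3 higher and 1 lower, and by total counts none of either list was lower. The summed muscle level was 1719 and 5835 CPM in pair 1, and 18536 and 12388 in pair 2.

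**Figure D4:**
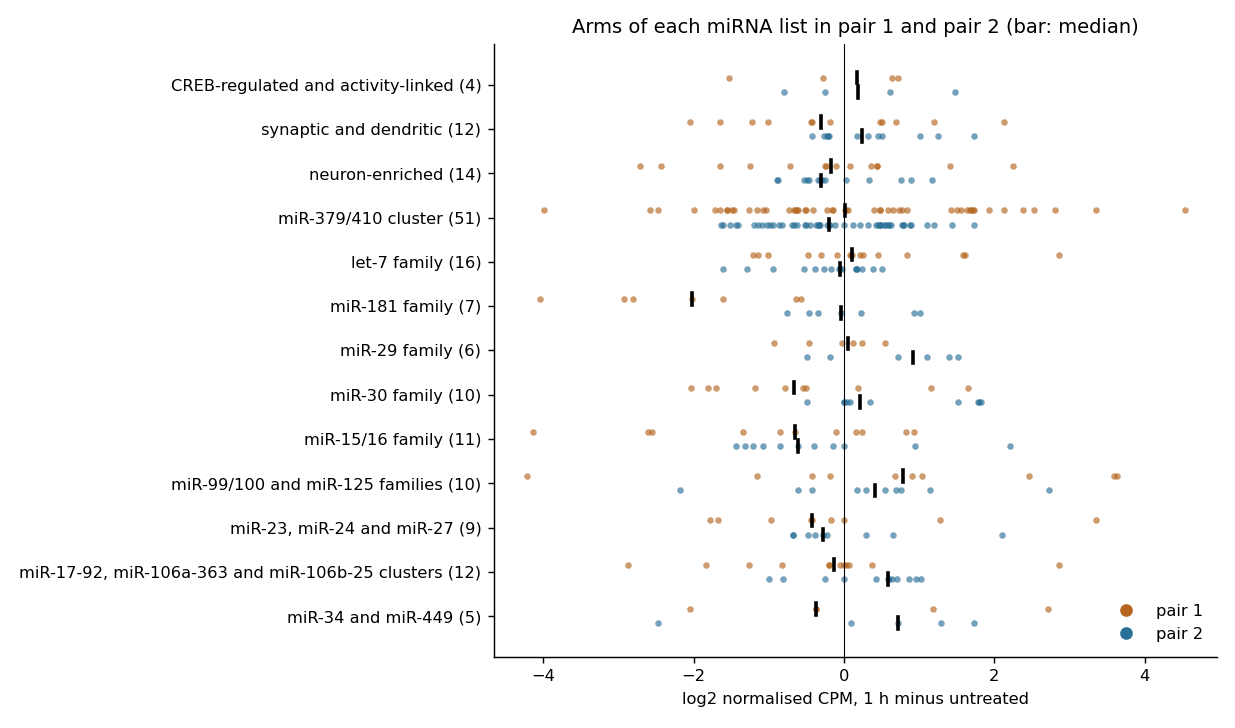
Change from untreated to 1 h in log2 normalised CPM (x axis) of each arm of 13 miRNA lists (y axis, number of arms in brackets), pair 1 above pair 2, with a bar at the median. Most lists spread across 0 in both pairs, and the arms of the miR-181 family lie at or below -0.57 in pair 1.

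Both arms were measured for 141 miRNAs. Their changes had the same sign in 69 of them in pair 1 and in 68 in pair 2. In 10 miRNAs both arms were higher in both pairs, in 5 both were lower, and in 14 one arm was higher and the other lower. miR-99b belongs to the first of these groups, miR-411, miR-872 and miR-181b to the second and miR-212 to the third. With 10 or more counts for both arms in each of the 4 libraries there were 73 miRNAs, 3 with both arms higher and 3 with both lower.

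The start of the tags fixes the seed, and it was not the annotated base for all arms. Among the arms without a RefSeq match, whose starts were not checked, were miR-219-3p, miR-185-5p, miR-320-3p, miR-485-5p and miR-124-3p. At least 90.6% of the counts of the 5p arms of miR-99a, miR-99b, miR-100 and miR-181b and of the 3p arms of miR-24, miR-27a and miR-27b began at the annotated base in each of the 4 libraries. For miR-142-5p the share was 45.4% in NT-1 and 23.1% in 1h-1, and 9.66% in NT-2 and 9.22% in 1h-2. For miR-411-5p it was 42.8% and 67.5%, and 45.9% and 48.7%. The level of such an arm sums tags with more than one seed, and the share itself differed within pairs. For miR-132-3p it was 40.0% and 16.1%, and 63.7% and 59.8%, and for miR-132-5p 32.2% and 50.6%, and 26.5% and 18.5%. miR-101a-3p began at the annotated base in 55.0% and 78.0% of its counts in pair 1 and in 32.6% and 31.9% in pair 2. Shares below 90% in every library were also found for miR-664-5p (43.8% to 84.5%), miR-455-3p (39.3% to 87.5%), miR-409-3p (31.1% to 58.8%), miR-1839-5p (65.9% to 82.0%), miR-140-3p (2.92% to 38.0%) and miR-485-3p (0.22% to 5.13%).

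The neighbouring times of the same time courses were compared with 1 h in the same fit. The untreated libraries are not part of these contrasts. They do enter the scaling, the time course term and the estimate of the spread. Against 0.5 h, 0 of 469 arms (0%) passed an adjusted p of 0.05 and 6 (1.28%) an unadjusted one, all lower at 1 h (0 and 9 by DESeq2). miR-34c-5p, of a family that restrains cell division, was the most abundant of these. It was at 6781 CPM at 0.5 h and 2017 at 1 h in the first time course, and at 29721 and 4784 in the second. The fitted log2 difference was -2.36 ± 0.88 (SE). Its level in the untreated libraries was 2602 and 1964 CPM, so that 1 h was 0.37 lower and 1.28 higher than untreated on the log2 scale. miR-34b-5p, from the same transcript, was at 42.2 and 14.9 CPM, and at 122 and 20.8. The others were miR-17-5p, miR-17-3p, miR-193a-3p and miR-6236-5p. Against 3 h, 0 arms (0%) passed the adjusted and 9 (1.92%) the unadjusted threshold, again all lower at 1 h, where DESeq2 gave 2 and 14. The most extreme, miR-344f-3p, was at 11.7 CPM at 1 h and 1542 at 3 h in the first time course, and at 8.49 and 15.2 in the second.

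Across the 6 times, 1 h was rarely the extreme. miR-1198-5p alone (0.213%) was highest at 1 h in both time courses, with 8.10 and 9.77 CPM in pair 1 and 15.9 and 59.7 in pair 2. let-7e-5p and miR-6236-5p (0.426%) were lowest at 1 h in both. The levels of miR-485-5p were higher at 0.5 h, 602 and 1870 CPM, than at 1 h, and they were 550 and 678 CPM at 3 h. miR-212-5p was at 650 and 2030 CPM at 0.5 h, and at 320 and 4840 at 3 h. miR-219-3p was at 6476 and 15468 CPM at 0.5 h and 16302 and 15638 at 3 h. miR-181b-5p was at 698 and 470 CPM at 0.5 h and 1552 and 552 at 3 h, so that NT-1, at 23541, stood apart from all libraries of its own time course.

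**Figure D5:**
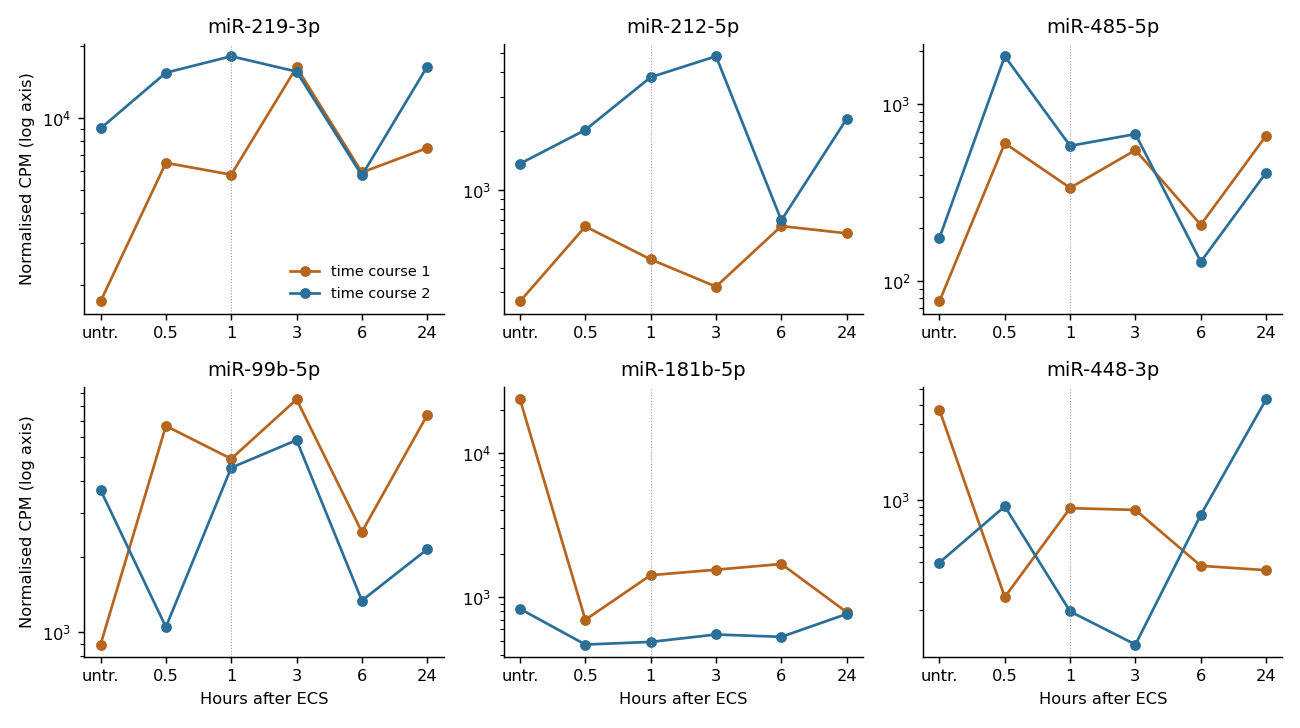
Normalised CPM on a log axis (y) of 6 arms in the untreated library and at the 5 times after ECS (x, evenly spaced, in h), for both time courses, with a dotted line at 1 h. miR-485-5p is above the untreated level in both courses at each time but 6 h, and the value of miR-181b-5p in NT-1 exceeds the other 11.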

How the data were processed

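Hippocampal RNA was made into size-selected small RNA libraries (Illumina DGE kit, Genome Analyzer IIx). Per the study, the authors removed reads with no or too short an insert or without the 3′ adapter (miR-Intess pipeline). The deposited files hold counts: each lists a distinct tag once with its read count, and none is shorter than 18 nt. No molecular identifiers are described. PCR copies are therefore counted, and precision beyond counting error rests on the replicates, which were separate mice.

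Tags were matched exactly over their full length to GRCm38 hairpins (GENCODE M21), counted per arm, joined over loci of one miRNA name and split where several names matched. Arms with 10 or more counts in at least 2 of 12 libraries were fitted with edgeR 4.0.16 in R 4.3.3 (TMM, quasi-likelihood, time point plus time course, 5 residual degrees of freedom, Benjamini-Hochberg adjustment over 469 arms). Pair changes are log2 normalised CPM with a prior count of 0.5. The study states that the replicate number marks the time course, and the difference between time courses in the untreated libraries correlated with that in the 1 h libraries (Pearson's r 0.618 over 469 arms), so the deposited numbers pair the libraries. The study's table gives more known miRNA reads to NT-1 than to NT-2. Under the deposited labels NT-1 held fewer miRNA counts (1067558) than NT-2 (4282006). Which labels of the untreated libraries are right was not tested, and each pair change rests on the deposited ones. The fit was run on simulated counts that held no difference between time courses. That run cannot show how the fit deals with such a difference.

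Named arms were the 8 higher and 8 lower of the abundant arms (mean of 0.1% of miRNA counts or more) and the 5 of each of the rest with 10 or more counts in each of the 4 libraries, both by the smaller of the pair changes, the 10 most abundant, list members and opposite arms. Arms past the unadjusted threshold, extremes over time and those at the class boundary were named after their values were seen. The members and lists were chosen with earlier results of these data known. Alternatives were total scaling, DESeq2 size factors and DESeq2 1.42.0, tags of 20 nt and more, a match of the first 18 nt, tags of 1 miRNA, other filters, no block, only the 4 libraries, and each library left out.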

Additional observations from a re-analysis of the deposited data

How the results depend on the processing

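No arm passed an adjusted p of 0.05 for 1 h against untreated under any of the 14 alternatives, and the number at an unadjusted p under 0.05 ran from 2 to 18, or from 2 to 52 with a library left out (without NT-1 and without NT-2). For 1 h against 0.5 h the count of adjusted calls was 0 throughout. For 1 h against 3 h it was 2 with no filter on low counts and 2 with DESeq2, and 0 otherwise. With the replicate block removed, so that the pairing by time course was not used, the counts of adjusted calls were 0, and 2 arms were past the unadjusted threshold for 1 h against untreated. The 301 arms with 10 or more counts in each of the 4 libraries were also scaled anew by themselves. Then 74 were higher and 67 lower in both pairs, where the main scaling had 136 of them moving the same way. By 1.5-fold 17 of the 301 were higher and 16 lower, against 44 and 38 of the 469 arms in the main setting. With no filter 81 were lower by 1.5-fold, among a larger number of arms. Over 73 named arms, 693 of 722 fitted log2 changes under the alternatives that keep all libraries had the direction of the main value, and 29 in 19 arms did not, with the cause not tested. With tags of 20 nt and more these were miR-872-5p 0.78, miR-3099-3p -0.050, let-7f-5p 0.24, let-7g-5p -0.086, let-7c-5p -0.013, miR-29a-3p -0.29, miR-219-5p -0.015, miR-485-3p -0.40, miR-301-3p 1.91, miR-132-3p -0.31, miR-23a-3p 0.16, miR-23b-3p 0.080, miR-134-5p 0.23, let-7e-5p 0.40, miR-125a-5p -0.51. Without the replicate block they were let-7g-5p -0.19, miR-29a-3p -0.040, miR-485-3p -0.047, miR-138-5p -0.097. By total counts they were miR-143-3p 0.052, miR-140-3p 0.027. By a match of the first 18 nt it was let-7e-5p 0.15. miR-24-5p, at -0.01, was at 0.0060, 0.032, 0.035, 0.035, 0.045, 0.18 and 0.33 under 7 alternatives. With 1 library left out, where the lone library of a group is assumed to vary like the other time points, 50 of 292 values in 35 arms changed direction, and their fitted changes ranged as follows: miR-99a-5p -0.46 to 1.73, miR-298-5p -0.48 to 0.95, miR-99b-5p -0.14 to 2.88, miR-448-3p -3.62 to 0.76, miR-872-5p -2.0006 to 0.051, miR-664-5p -1.28 to 3.53, miR-124-3p -2.05 to 0.074, let-7g-5p -0.45 to 0.88, miR-128-3p -0.62 to 1.39, miR-101a-3p -1.32 to 0.75, miR-143-3p -1.06 to 0.64, miR-29a-3p -0.52 to 0.79, miR-140-3p -0.76 to 0.34, miR-1839-5p -0.40 to 1.49, miR-219-5p -0.20 to 0.80, miR-185-3p -0.45 to 1.22, miR-541-3p -0.23 to 0.40, miR-24-5p -0.56 to 0.42, miR-485-3p -0.42 to 0.53, miR-144-5p -0.76 to 1.39, miR-132-3p -0.26 to 0.64, miR-132-5p -0.38 to 0.56, miR-181a-5p -3.22 to 0.077, miR-23a-3p -0.99 to 0.085, miR-23b-3p -0.88 to 0.25, let-7i-5p -0.13 to 0.71, miR-134-5p -1.65 to 0.32, miR-138-5p -0.89 to 0.85, miR-9-5p -0.47 to 1.18, miR-34c-5p -0.28 to 1.07, miR-486-5p -0.11 to 2.07, miR-222-3p -0.24 to 0.76, miR-409-3p -0.57 to 0.91, miR-338-3p -0.36 to 0.83, miR-125a-5p -1.23 to 1.21. NT-1, with the fewest miRNA counts and the shortest tags of the 4 libraries compared, limits what pair 1 can show.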
